A study of Homo sapiens with 4 samples.

Results

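The class 1 classifier genes of uveal melanoma are EIF1B, FXR1, ID2, LMCD1, LTA4H, MTUS1, ROBO1 and SATB1. They were taken by symbol from the list of genes known to be high in class 1 tumours, which carry a low risk of metastasis. That rule uses no measured value, but the list was chosen with earlier results of these data known. All 8 genes had a value, among 11650 genes in the files, and all 8 were among the 10271 genes tested. RNA sequencing was done on 4 libraries of 92.1, an established cell line from a uveal melanoma, a tumour of the pigment cells of the eye. There were 2 libraries of parental cells (Ctrl) and 2 of resistant cells (Res), which are a derivative of the same line, and the labels name neither an agent, a dose nor a time for the resistance. The design compares resistant with parental cells, and no label says that replicates are separate cultures, so the p-values describe a spread between libraries that may be technical.

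Uveal melanomas fall into 2 expression classes. Class 1 tumours keep much of the programme of a differentiated melanocyte, and class 2 tumours have lost part of it, often together with a copy of chromosome 3 and the function of the tumour suppressor BAP1. The clinical assay reads the 8 class 1 genes together with 4 class 2 genes (CDH1, ECM1, HTR2B and RAB31) and 3 control genes (MRPS21, RBM23 and SAP130). The class 1 genes share no single pathway. ID2 encodes a dominant-negative helix-loop-helix protein, SATB1 an organizer of chromatin loops, and LMCD1 a LIM-domain cofactor that restrains GATA factors. ROBO1 is a receptor for SLIT guidance cues, LTA4H makes leukotriene B4, and MTUS1 encodes microtubule-associated tumour suppressor isoforms. FXR1 and EIF1B act on messenger RNA, the former as an RNA-binding protein of the fragile X family and the latter as a close relative of the start-codon selection factor EIF1.

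The deposited values are FPKM (fragments scaled per length of transcript and per library), which can therefore be compared between genes. Differences are given as log2 fold changes of FPKM + 1, resistant minus parental, ± SE, with p-values from limma adjusted by Benjamini-Hochberg over all genes tested. The FPKM of a library summed to between 282602 and 293481, and the number of reads behind them is unknown. The pooled SD between replicates was 0.266 in parental and 0.378 in resistant libraries on the log2 scale. With 2 libraries against 2, an exact permutation test of a single gene cannot go below p = 0.333, so calls depend on the variance that limma pools across genes. Several pigment-cell genes, among them PMEL and TYRP1, were high in both groups. SOX10, the neural crest transcription factor, was named after its values were seen, at 91.8 and 73.3 FPKM in parental against 54.9 and 54.3 FPKM in resistant libraries. Of the pigment-cell list of 8 genes all 8 had a value, and 0 were called in either direction, against 0.0584% of all genes. On the same list DCT averaged 5.17 FPKM in parental against 0.501 FPKM in resistant cells, and S100B 2.51 against 0.868 FPKM.

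Of the 8 class 1 genes, 0 were called higher and 0 lower at an adjusted p under 0.05 in limma, against 0.0487% of all genes tested higher and 0.00974% lower, or 0.0584% (6 of 10271) in either direction. At an unadjusted limma p under 0.05 the count was 1 class 1 gene higher (SATB1) and 0 lower, and the share of all genes was 6.06% higher and 10.2% lower, or 16.2% in either direction. The libraries of the groups did not overlap for 7 of the 8 genes, 3 higher (EIF1B, ROBO1 and SATB1) and 4 lower (FXR1, LMCD1, LTA4H and MTUS1) in resistant cells. Over all genes the groups did not overlap for 51.0%, with 19.1% higher and 31.8% lower. The median log2 fold change was 0.05 over the 8 genes, with 4 above 0 and 4 below, and -0.08 over all genes tested. Dropping parental replicate 2 gave a median of -0.20, dropping resistant replicate 2 gave -0.18, and dropping resistant replicate 1 gave 0.15, so its sign rested on single libraries. In these bulk libraries fewer cells with a transcript cannot be told apart from less transcript per cell.

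**Figure D1:**
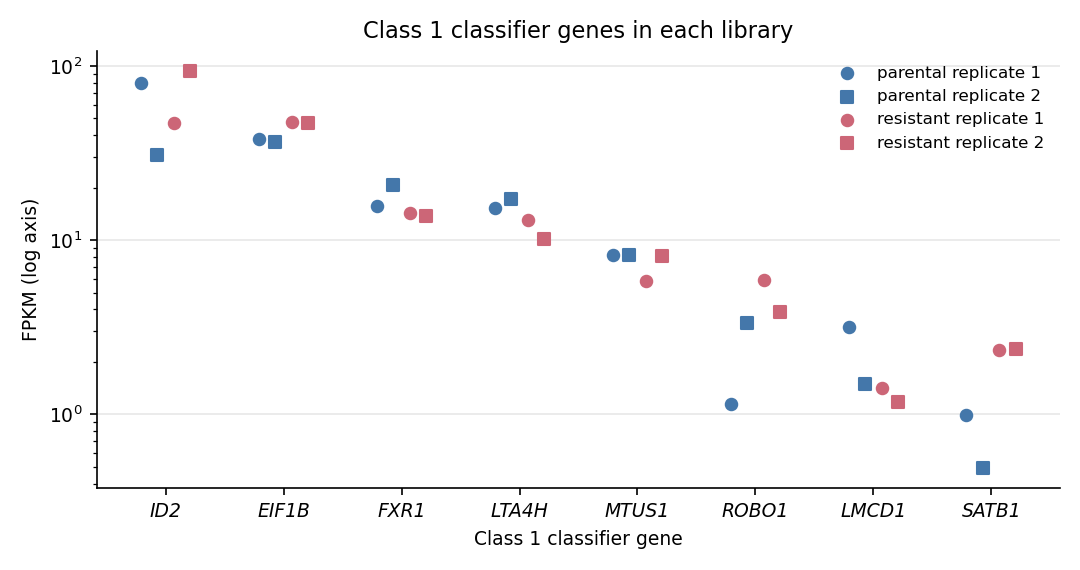
FPKM (log axis) of each class 1 classifier gene in the 2 parental (blue) and 2 resistant (red) libraries, with circles for replicate 1 and squares for replicate 2; genes are ordered by mean level. Levels run from 0.492 FPKM for SATB1 in a parental library to 94 FPKM for ID2 in a resistant library, and ID2 is the only class 1 gene whose groups overlap.

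The class 1 genes differed widely in level in the line. ID2 and EIF1B were the most abundant, at percentiles 94.9 and 91.9 of parental FPKM over all genes tested. FXR1 (percentile 81.8), LTA4H (79.3) and MTUS1 (61.2) came next, and LMCD1 (20.3), ROBO1 (19.3) and SATB1 (0.769) were low. Neighbours in the parental order overlapped between libraries for ID2 and EIF1B, for FXR1 and LTA4H, and for LMCD1 and ROBO1. In resistant cells ROBO1 stood at percentile 45.4 and SATB1 at 22.4, and LMCD1, at 5.97, was the lowest of the 8. In resistant cells the neighbours that overlapped were ID2 with EIF1B and MTUS1 with ROBO1.

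SATB1, which folds chromatin into loops and recruits chromatin-modifying enzymes, had the largest difference among the class 1 genes, by less than its SE over ROBO1. It measured 0.996 and 0.492 FPKM in parental replicates 1 and 2, against 2.35 and 2.38 FPKM in resistant replicates 1 and 2. Both resistant libraries lay above both parental ones and close to each other, while the parental libraries differed 2.02-fold. The mean was 0.744 ± 0.356 FPKM in parental and 2.37 ± 0.0214 FPKM in resistant cells (SD, n = 2 each), a ratio of 3.18. On the log2(FPKM + 1) scale the difference was 0.96 ± 0.20 SE (95% interval 0.45 to 1.47, limma adjusted p = 0.158), at percentile 96.2 of all absolute differences, and it did not pass the adjustment. Adding 0.1 in place of 1 before taking logs gave 1.62. SATB1 lay under the filter of a mean of 1 FPKM in parental cells, so it was tested only through its level in resistant cells. Of the 50-base words in its transcripts 1.19% also occur in transcripts of TBC1D5, which overlaps it.

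The chromatin partners of SATB1 went both ways. Of 12 such genes on the list, 10 were tested, with 4 above 0, 6 below and a median of -0.07. The count called was 0 in either direction, and with 0.0584% of all genes called this says little about these genes. The acetyltransferase EP300 stood at 5.15 and 5.46 FPKM in parental against 6.79 and 8.54 FPKM in resistant libraries (0.45 ± 0.19 SE, limma adjusted p = 0.334). CTBP1 lay in the other direction, at 6.69 and 6.03 FPKM in parental against 4.66 and 4.92 FPKM in resistant libraries (-0.35 ± 0.18 SE, limma adjusted p = 0.398).

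ROBO1, the receptor for SLIT ligands, was the other class 1 gene with a resistant mean over 2 times the parental mean. It measured 1.15 and 3.35 FPKM in parental replicates 1 and 2, against 5.92 and 3.88 FPKM in resistant replicates 1 and 2. The groups did not overlap, but parental replicate 2 came near resistant replicate 2, and the parental libraries differed 2.91-fold between them. The log2 fold change was 0.93 ± 0.39 SE (95% interval -0.06 to 1.91, limma adjusted p = 0.326), and the spread between replicates was at percentile 93.4 of all genes. Without parental replicate 1 the log2 fold change was 0.42, and without parental replicate 2 it was 1.43.

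Little of the ligand and receptor side of the SLIT pathway was measured. Of 21 other genes of the pathway, 15 had a value and 12 were tested. Of these 0 were called in either direction, against 0.0584% of all genes. An unadjusted limma p under 0.05 was reached by 1 (NCK2), against 16.2% of all genes. The ligand SLIT2 stood at 0.289 and 0.58 FPKM in parental against 0.436 and 0.59 FPKM in resistant libraries, below the filter. ROBO3 was also below it, at 0.734 and 0.475 FPKM in parental against 0.629 and 0.4 FPKM in resistant libraries. NCK2, an adaptor that couples receptors to the actin cytoskeleton, stood at 10.4 and 5.51 FPKM in parental against 13.9 and 15.3 FPKM in resistant libraries (0.85 ± 0.30 SE, limma adjusted p = 0.282), which was 0.44 without parental replicate 2. The 12 tested genes, which include the small GTPases RAC1 and CDC42 that carry the signal, had a median of -0.19. Of them 4 were above 0 and 8 below, the latter with SOS1 (-0.49 ± 0.65 SE) and NCK1 (-0.44 ± 0.25 SE).

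EIF1B was the steadiest of the class 1 genes. It measured 38.1 and 36.7 FPKM in parental replicates 1 and 2, against 47.4 and 47.3 FPKM in resistant replicates 1 and 2. The replicates of each group nearly coincided, with a replicate SD of 0.025 on the log2 scale that lay at percentile 1.55 of all genes tested. The resistant mean was 1.27 times the parental mean, and the log2 fold change was 0.33 ± 0.15 SE (95% interval -0.04 to 0.70, limma adjusted p = 0.341). The SE that limma assigned is larger than this gene's own spread because limma draws each gene's variance toward that of all genes.

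EIF1, the paralog that scans for the start codon in the initiation complex, also lay higher in both resistant libraries. It stood at 75.2 and 79.1 FPKM in parental against 118 and 105 FPKM in resistant libraries (0.52 ± 0.14 SE, limma adjusted p = 0.213). Since reads of near-identical paralogs can be divided wrongly, their coding sequences were compared. Both run over 342 bases and differ at 61 of them (82.2% identity). The longest identical stretch was 25 bases, and no 50-base word of an EIF1B transcript occurred in a transcript of another gene in GENCODE release 29. The first 120 bases of each are shown because they hold that stretch and 17 of the differences, and capitals mark the bases that differ.
EIF1B: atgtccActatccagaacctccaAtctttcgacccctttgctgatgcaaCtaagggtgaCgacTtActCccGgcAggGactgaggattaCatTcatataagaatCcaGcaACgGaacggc
EIF1: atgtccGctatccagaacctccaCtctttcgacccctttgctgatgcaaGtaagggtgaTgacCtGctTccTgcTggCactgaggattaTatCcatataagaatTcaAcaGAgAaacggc
No source used here gives the read length, and shorter shared words were not searched. Of 17 other genes of start-codon selection and ribosome loading, all 17 were tested and 0 called, against 0.0584% of all genes. Of them 8 were above 0 and 9 below, with a median of -0.11. BZW1, a regulator that mimics the initiation factor EIF5, stood at 4.02 and 3.85 FPKM in parental against 7.4 and 4.62 FPKM in resistant libraries. Its log2 fold change was 0.48 ± 0.25 SE, and 0.19 without resistant replicate 1. EIF5 itself lay in the other direction (-0.51 ± 0.47 SE), at 28.1 and 9.99 FPKM in parental against 10.6 and 12.7 FPKM in resistant libraries.

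FXR1 lay lower in both resistant libraries. It measured 15.8 and 20.8 FPKM in parental replicates 1 and 2, against 14.3 and 13.7 FPKM in resistant replicates 1 and 2. The groups did not overlap, although parental replicate 1 was nearer to the resistant libraries than to parental replicate 2. FXR1 had a log2 fold change of -0.35 ± 0.20 SE (95% interval -0.85 to 0.15, limma adjusted p = 0.429), which was -0.17 without parental replicate 2 and -0.54 without parental replicate 1.

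Both paralogs of FXR1 stood lower in resistant libraries as well, without a call. FXR2 stood at 5.93 and 5.27 FPKM in parental against 4.14 and 3.71 FPKM in resistant libraries (-0.42 ± 0.18 SE, limma adjusted p = 0.335). FMR1, the fragile X gene itself, stood at 2.61 and 2.26 FPKM in parental against 2 and 2.03 FPKM in resistant libraries (-0.19 ± 0.17 SE). Of 7 fragile X family members and partners 6 were tested and 0 called, against 0.0584% of all genes. Of the 6, 1 was above 0 and 5 below, with a median of -0.19 against -0.08 over all genes. The actin-regulatory partner CYFIP1 stood at -0.28 ± 0.21 SE.

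LTA4H, the hydrolase that turns leukotriene A4 into leukotriene B4, lay lower in resistant cells. It measured 15.3 and 17.2 FPKM in parental replicates 1 and 2, against 13.1 and 10.2 FPKM in resistant replicates 1 and 2. The groups did not overlap. With a ratio of means of 0.718, its log2 fold change was -0.45 ± 0.20 SE (95% interval -0.95 to 0.04, limma adjusted p = 0.334), and it was -0.29 without resistant replicate 2. Of the 50-base words of LTA4H transcripts 7.33% also occur, on the opposite strand, in transcripts of 2 other genes. The libraries were stranded, but no source used here says whether counting used strand. Whether reads of these genes entered the LTA4H value is therefore unknown.

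The other leukotriene genes were mostly unmeasured. Of 21 genes on the list 10 had a value and 9 were tested, with 0 called in either direction, against 0.0584% of all genes. ALOX5 and ALOX5AP, which make the substrate of LTA4H, had no FPKM value in the files and were not analysed here. The aminopeptidase RNPEP, a relative of LTA4H, stood at 29.1 and 26.3 FPKM in parental against 24.2 and 22.5 FPKM in resistant libraries (-0.24 ± 0.16 SE). RNPEPL1, another relative, overlapped between groups (0.11 ± 0.19 SE). PTGR1, which inactivates leukotriene B4, stood at -0.33 ± 0.18 SE, and GGT1, which trims the cysteinyl leukotrienes, at 0.29 ± 0.19 SE.

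CYSLTR2, the receptor for cysteinyl leukotrienes and a rare driver of uveal melanoma, had the largest difference on the leukotriene list. It measured 0.0744 and 0.0818 FPKM in parental replicates 1 and 2, against 3.03 and 1.83 FPKM in resistant replicates 1 and 2. The groups were far apart, and the log2 fold change of 1.65 ± 0.21 SE did not pass the threshold (limma adjusted p = 0.0788). The gene was tested only through its level in resistant cells. BAP1, whose loss marks class 2 tumours, was chosen for mention after its values were seen. It stood at 4.85 and 4.54 FPKM in parental against 4.03 and 4.27 FPKM in resistant libraries (-0.15 ± 0.18 SE, limma adjusted p = 0.715).

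LMCD1, the LIM-domain cofactor, had the largest difference downward among the class 1 genes. It measured 3.17 and 1.49 FPKM in parental replicates 1 and 2, against 1.41 and 1.17 FPKM in resistant replicates 1 and 2. The groups did not overlap, but parental replicate 2 lay close to the resistant libraries, so the difference rested on parental replicate 1. LMCD1 had a log2 fold change of -0.49 ± 0.28 SE (95% interval -1.21 to 0.22, limma adjusted p = 0.438), which was -0.12 without parental replicate 1 and -0.87 without parental replicate 2. TES, a related LIM protein of focal adhesions, overlapped between groups (-0.21 ± 0.30 SE). Of 13 LIM-domain relatives and GATA factors 7 were tested, with 0 called, against 0.0584% of all genes, and a median of -0.02. CSRP1, a LIM protein of the actin cytoskeleton, stood at 3.66 and 4.12 FPKM in parental against 5.72 and 7.95 FPKM in resistant libraries (0.67 ± 0.22 SE, limma adjusted p = 0.262).

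MTUS1, whose products bind microtubules and restrain growth signalling, differed least. It measured 8.26 and 8.21 FPKM in parental replicates 1 and 2, against 5.86 and 8.07 FPKM in resistant replicates 1 and 2. Resistant replicate 2 was almost level with the parental libraries and resistant replicate 1 was lower. MTUS1 had a log2 fold change of -0.23 ± 0.21 SE (95% interval -0.76 to 0.30, limma adjusted p = 0.621), which was -0.03 without resistant replicate 1 and -0.43 without resistant replicate 2. The files give 1 value for the gene, so its isoforms cannot be told apart.

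Among genes that work beside MTUS1, the list held differences in both directions. Of 12 genes at the growing tips of microtubules, where MTUS1 products act, 9 were tested and 0 called, against 0.0584% of all genes. At an unadjusted limma p under 0.05, 1 was higher and 2 lower, against 6.06% of all genes higher and 10.2% lower. MAPRE2, an end-binding protein, stood at 9.57 and 11.9 FPKM in parental against 4.15 and 1.48 FPKM in resistant libraries (-1.71 ± 0.38 SE, limma adjusted p = 0.165). APC, which stabilizes microtubules and restrains beta-catenin, stood at 3.09 and 3.48 FPKM in parental against 6.02 and 5.81 FPKM in resistant libraries (0.69 ± 0.18 SE, limma adjusted p = 0.198). The depolymerizing kinesin KIF2C stood at -0.58 ± 0.22 SE. These 3 differences were each larger in size than that of MTUS1 itself, and the difference between genes was not tested.

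ID2, which binds E proteins and keeps them off DNA, varied more within groups than between them. It measured 79.5 and 30.8 FPKM in parental replicates 1 and 2, against 47.2 and 94 FPKM in resistant replicates 1 and 2. Each group held a high and a low library, and the replicates differed 2.58-fold in parental and 1.99-fold in resistant cells. The replicate SD of 0.831 on the log2 scale lay at percentile 97.6 of all genes tested. ID2 had a log2 fold change of 0.42 ± 0.53 SE (95% interval -0.92 to 1.76, limma adjusted p = 0.725). It turned to -0.25 without parental replicate 2 and to -0.07 without resistant replicate 2, so its direction rested on which library was used.

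The other inhibitors of DNA binding varied less between replicates than ID2. ID1 stood at 62.8 and 63.3 FPKM in parental against 72.9 and 51.8 FPKM in resistant libraries, ID3 at 88.5 and 81.3 and at 135 and 87 FPKM, and ID4 at 45.7 and 36.8 and at 46.5 and 47.2 FPKM. In parental replicate 2, where ID2 was lowest, ID1 and ID3 stood close to their other parental value, and ID4, like ID2, was lowest there and highest in resistant replicate 2. The log2 fold change was -0.03 ± 0.20 SE for ID1, 0.35 ± 0.24 SE for ID3 and 0.19 ± 0.17 SE for ID4, and that of ID1 turned to 0.07, 0.01 and 0.14 with median-of-ratios, quantile and control-gene scaling. Genes of the BMP pathway, which induces the ID genes, were listed with them. Of 14 other ID, E protein and BMP pathway genes 12 were tested and 0 called, against 0.0584% of all genes. Of the 12, 7 were above 0, with a median of 0.09.

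On that list the groups did not overlap for 5 of the 12 tested genes higher and 1 lower, against 19.1% and 31.8% of all genes, and the 3 largest differences were those of BMPR2, ACVR1 and SMAD9. The type II receptor BMPR2 stood at 4 and 4.12 FPKM in parental against 8.44 and 5.21 FPKM in resistant libraries (0.60 ± 0.25 SE, limma adjusted p = 0.331). The type I receptor ACVR1 (0.51 ± 0.23 SE) and the signal transducer SMAD9 (0.50 ± 0.21 SE) lay in the same direction, again more so in resistant replicate 1. Without that library the log2 fold changes were 0.29 for BMPR2, 0.28 for ACVR1 and 0.31 for SMAD9. The other tested BMP receptor and SMAD genes on the list lay between -0.09 and 0.11. BMPR2 and ACVR1 lie on chromosome 2, where 30.8% of tested genes were higher without overlap.

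**Figure D2:**
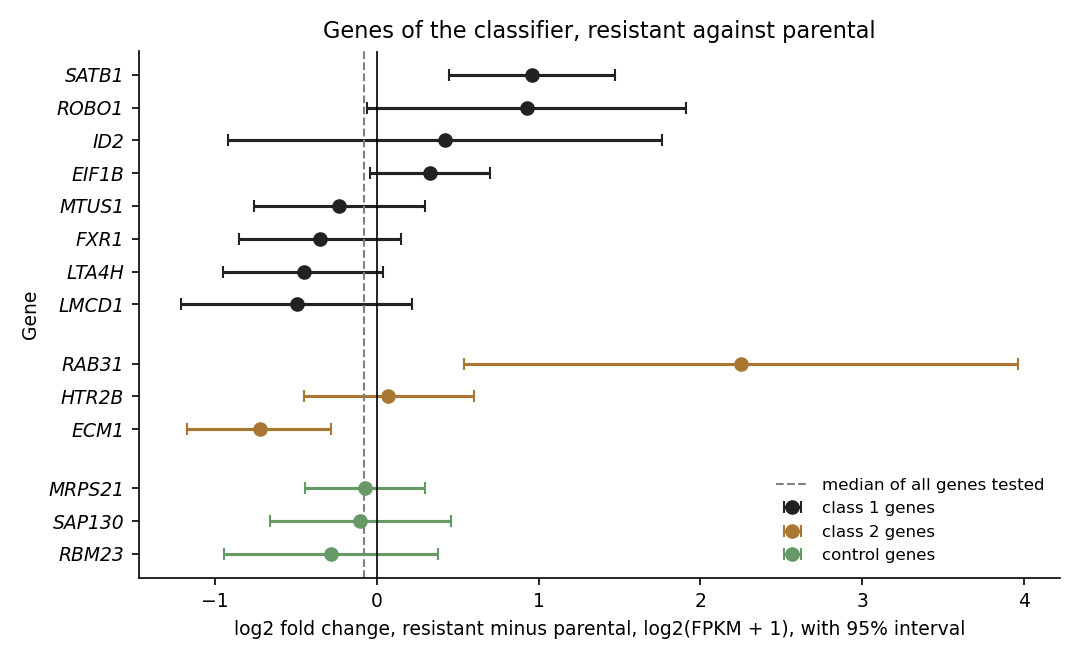
Log2 fold change (resistant minus parental, log2(FPKM + 1)) with 95% intervals from limma for the 8 class 1 genes (black), the 3 class 2 genes with a value (brown) and the 3 control genes (green); the dashed line is the median of all genes tested, -0.08. SATB1 is the only class 1 gene whose interval lies wholly on one side of 0, and the intervals of RAB31 and ECM1 lie on opposite sides.

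The class 2 genes of the same assay also split. RAB31, a small GTPase of vesicle traffic, measured 3.33 and 0.824 FPKM in parental replicates 1 and 2, against 6.36 and 23.3 FPKM in resistant replicates 1 and 2 (2.25 ± 0.68 SE, limma adjusted p = 0.234). Without resistant replicate 2 its log2 fold change was 1.39. ECM1, a secreted matrix protein, stood at 3.33 and 2.85 FPKM in parental against 1.56 and 1.39 FPKM in resistant libraries (-0.72 ± 0.17 SE, limma adjusted p = 0.182). HTR2B, a serotonin receptor, stood at 28.4 and 28.8 FPKM in parental against 35.7 and 25.5 FPKM in resistant libraries (0.07 ± 0.21 SE). CDH1 had no value in the files and was not analysed here.

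Set as a whole against the class 2 genes, the class 1 genes gave a difference whose sign depended on 1 gene. The mean log2(FPKM + 1) of the 8 class 1 genes was 3.39 and 3.26 in parental against 3.44 and 3.48 in resistant libraries. Class 1 minus class 2 was 0.35 and 0.69 in parental against 0.30 and -0.05 in resistant libraries, a difference in means of -0.39. Without RAB31, left out after its values were seen, the same quantity was -0.11 and -0.16 in parental against 0.17 and 0.49 in resistant libraries, a difference of 0.46 in the opposite direction. These are descriptions of chosen genes on FPKM, not outcomes of the clinical assay, which uses PCR and all 4 class 2 genes.

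The control genes bear on how the class 1 genes are scaled. MRPS21, a mitochondrial ribosomal protein gene, stood at 57.4 and 58.5 FPKM in parental against 57.3 and 53 FPKM in resistant libraries. RBM23, an RNA-binding protein gene, stood at 3.77 and 4.95 FPKM and at 4.32 and 2.63 FPKM, and SAP130, a corepressor subunit, at 7.13 and 6.18 FPKM and at 7.26 and 5.15 FPKM. All 3 were lowest in resistant replicate 2, whose factor from these genes was 0.806 against 1.04 to 1.09 in the other libraries. Scaled by them, the log2 fold change of EIF1B was 0.51, of SATB1 1.07 and of ROBO1 1.06, that of MTUS1 was -0.06, of FXR1 -0.18 and of LTA4H -0.28, while the median of all genes moved from -0.079 to 0.073. No class 1 gene changed direction under this or the other scalings tried.

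The class 1 genes are spread over 4 chromosomes, with 5 of the 8 on chromosome 3, the chromosome lost in many class 2 tumours. On GRCh38, with gene bounds from GENCODE release 29, LMCD1 (ENSG00000071282.11_2) lies on chromosome 3 from 8501707 to 8574673 and SATB1 (ENSG00000182568.16_3) from 18345387 to 18445588. Further along chromosome 3 lie EIF1B (ENSG00000114784.3_2) from 40309684 to 40312424, ROBO1 (ENSG00000169855.19_2) from 78597240 to 79767815 and FXR1 (ENSG00000114416.17_2) from 180868141 to 180982753. ID2 (ENSG00000115738.9_2) lies on chromosome 2 from 8678845 to 8684453, MTUS1 (ENSG00000129422.14_3) on chromosome 8 from 17643795 to 17800917 and LTA4H (ENSG00000111144.9_2) on chromosome 12 from 96000828 to 96043520.

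Chromosome 3 as a whole lay near all genes. Its 552 tested genes had a median log2 fold change of -0.05, and the groups did not overlap for 20.5% higher and 28.8% lower, close to the shares over all genes. The 5 class 1 genes on it went both ways, from -0.49 to 0.96. Chromosome 2, which holds ID2, had a median of 0.07 over 663 tested genes, with 30.8% higher and 15.5% lower. Chromosomes 8 and 12, which hold MTUS1 and LTA4H, had medians of -0.15 over 381 and -0.16 over 541 tested genes, with 42.8% and 41.6% of genes lower without overlap. MTUS1 at -0.23 lay between the 25th and 75th percentile of its chromosome's genes (-0.43 to 0.06), and LTA4H at -0.45 lay below that range for chromosome 12 (-0.39 to 0.07).

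**Figure D3:**
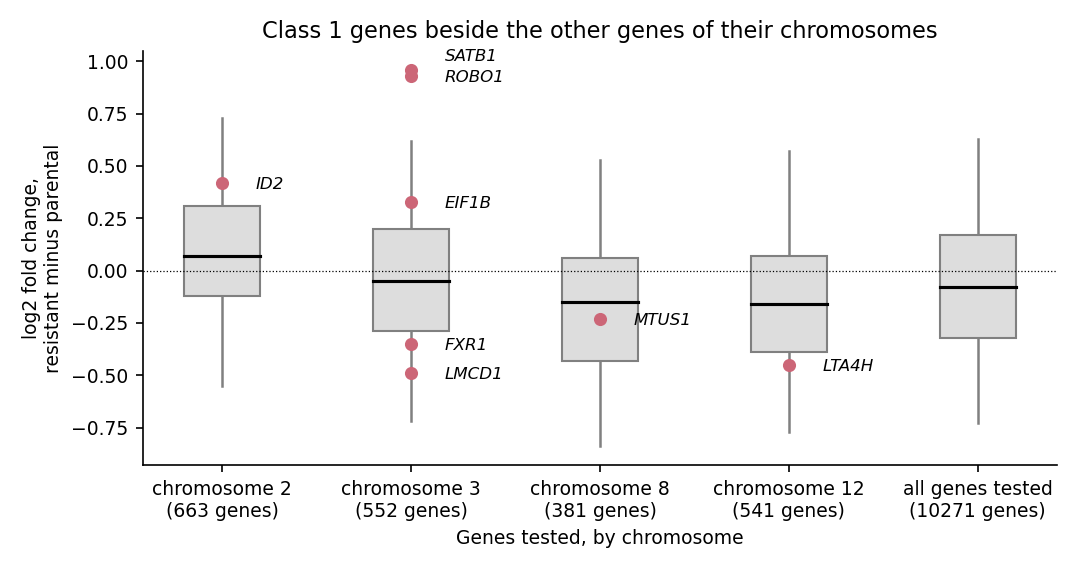
Log2 fold change (resistant minus parental) of the genes tested on each chromosome that holds a class 1 gene and of all genes tested: boxes span the 25th to 75th percentile with the median as a line, whiskers the 5th to 95th percentile, and red points are the class 1 genes. SATB1 and ROBO1 lie above the 95th percentile of chromosome 3 (0.62), and the other class 1 genes lie within the whiskers of their chromosomes.

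Start-site sequence of 7 of the 8 class 1 genes, all but MTUS1, was taken from a RefSeq table (GRCh38.p14), as windows from 250 bases before to 50 bases after each start. The windows were searched on both strands for CACGTG, the E-box read by MYC, USF and MITF, for TGACGTCA, the cyclic AMP response element, for TGANTCA, an AP-1 site, and for GGAATG, a TEAD site. No match overlapped a match of another motif. EIF1B, ID2, LMCD1 and LTA4H had 1 window each, FXR1 and ROBO1 2 each and SATB1 4. EIF1B has a CACGTG that begins 54 bases before its start, a motif found in 7.26% of 35116 windows. LMCD1 has a TGACGTCA that begins 183 bases before its start, found in 1.85% of windows. These stretches are shown because they hold the only matches to the 2 palindromes, with the match in capitals, for EIF1B at chr3:40309603-40309706 and for LMCD1 at chr3:8501590-8501697, both on the plus strand.
EIF1B: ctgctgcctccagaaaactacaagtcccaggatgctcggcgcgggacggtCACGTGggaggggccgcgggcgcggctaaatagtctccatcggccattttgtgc
LMCD1: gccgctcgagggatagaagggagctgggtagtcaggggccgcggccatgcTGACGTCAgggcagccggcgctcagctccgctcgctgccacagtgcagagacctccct
Of the other windows, 1 of 4 at SATB1 held a GGAATG (14.0% of all windows), and TGANTCA (7.71% of all windows) was found in none. A match is a description of these letters, not a binding site.

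The patterns most like those of the class 1 genes with the largest differences were found by Euclidean distance over the 4 libraries in log2 values centred per gene. For SATB1 these were EVA1A (distance 0.063), IFI6 (0.084) and CBARP (0.103). EVA1A, an autophagy-related membrane protein gene, stood at 9.92 and 7.43 FPKM in parental against 17.5 and 18.6 FPKM in resistant libraries. For LMCD1 they were SDF4 (0.036), PMEL (0.101) and TAFAZZIN (0.104). PMEL, the fibril protein of the melanosome, stood at 620 and 380 FPKM in parental against 395 and 338 FPKM in resistant libraries, highest like LMCD1 in parental replicate 1. With 4 libraries many genes have near-equal patterns, so this likeness is a description.

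Other markers differed between the same libraries. Of 8 pigment-cell genes 4 were lower and 1 higher without overlap, against 31.8% and 19.1% of all genes. The higher one was the melanin enzyme TYRP1 (1490 and 1480 FPKM against 2140 and 1510 FPKM), whose log2 fold change of 0.28 turned to -0.17 with quantile normalization, and the lower ones included the melanin enzyme DCT (4.88 and 5.46 FPKM against 0.486 and 0.517 FPKM, limma adjusted p = 0.0544) and S100B (-0.91 ± 0.18 SE). DCT and S100B, like the retinal gene RLBP1, averaged under 1 FPKM in resistant cells and were tested only through their parental level. MITF, the master regulator of pigment cells, differed mainly in resistant replicate 1, at 35.3 and 37.4 FPKM in parental against 9.64 and 31.8 FPKM in resistant libraries. Of 7 epithelial genes 3 had a value (KRT8, KRT18 and KRT19), and their sum was 3.12 and 3.91 FPKM in parental against 9.39 and 17.7 FPKM in resistant libraries, while EPCAM had none. Of 8 leukocyte genes 2 had a value (CD68 and LCP1, which summed to 32.6 and 27.4 FPKM against 13.2 and 10.7 FPKM), and PTPRC had none. Of 9 fibroblast genes 3 had a value, summing to 5.2 and 6.01 FPKM against 9.59 and 7.34 FPKM. Of 5 retinal pigment epithelium genes 3 had a value, among them RLBP1 (-0.95 ± 0.16 SE), summing to 5.29 and 4.69 FPKM against 4.48 and 3.08 FPKM. KRT8 and KRT19 averaged 0.308 and 0.246 FPKM in parental cells, under 0.5009 FPKM, the apparent floor of the files. They seem to have a value only through resistant cells, which tilts the epithelial sum toward that group. The fibroblast and retinal sums hold such genes as well. Of 5 endothelial genes 0 had a value. The part of these differences in the levels of the class 1 genes was not tested.

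**Figure D4:**
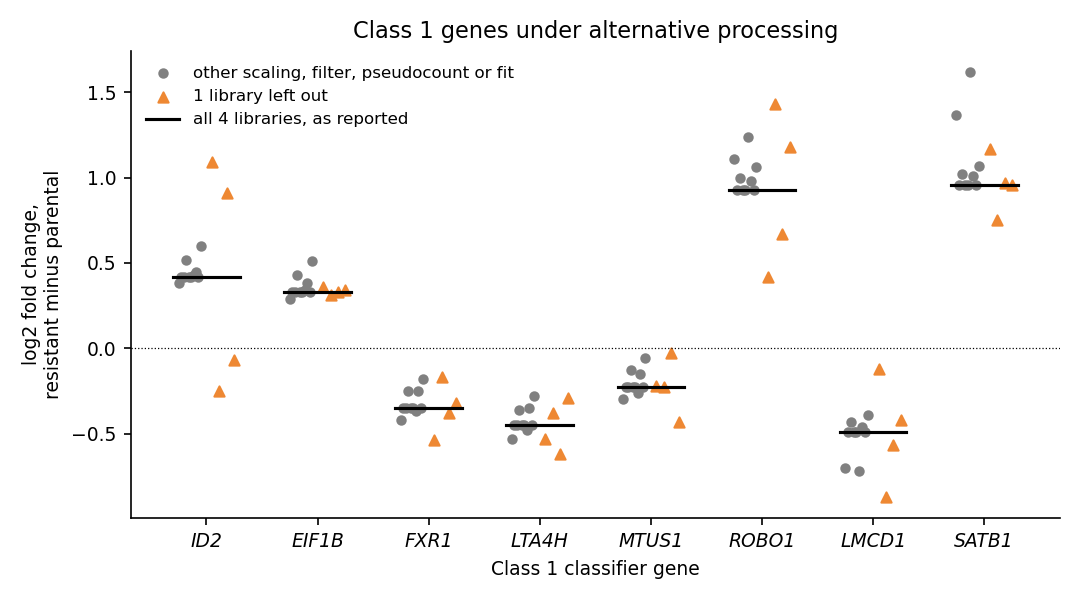
Log2 fold change (resistant minus parental) of each class 1 gene as reported (black line), under other scalings, filters, pseudocounts and fits (grey circles) and with 1 library left out (orange triangles). ID2 is the only class 1 gene with points on both sides of 0, from -0.25 to 1.09; EIF1B spans 0.29 to 0.51 and SATB1 0.75 to 1.62.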

How the data were processed

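RNA of 2 parental and 2 resistant 92.1 libraries was sequenced from stranded dUTP libraries after poly(A) selection or ribosomal RNA depletion, per the labels' protocols. The authors deposited FPKM per gene, per the file headers, on hg38, per the submitters' processing notes. No source used here names the aligner, quantifier or annotation. The smallest larger group mean was 0.5009 FPKM, so genes under about that level seem to have been removed before deposit. The cell line label counts up from 92.1 between samples, and the titles, which name 92.1 throughout, were followed. Of 11650 identifiers 11575 matched a table of current symbols and 11596 matched GENCODE release 29, but 11551 carry a suffix typical of annotation mapped between builds, so positions are those of release 29.

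Values were used as log2(FPKM + 1), and the 10271 genes whose mean reached 1 FPKM were fitted in limma 3.58.1 (R 4.3.3, variance trend, two-sided, Benjamini-Hochberg over all genes at 0.05). Depth is unknown, so precision comes from replicates alone. In simulated data of 10271 genes the test found 14.9% of changes of 1 and 90.6% of changes of 2 on the log2(FPKM + 1) scale. Of its calls 4.48% were false. Changes were planted in 200 genes, all with a mean above 2 on that scale, which leaves out SATB1 and LMCD1. Both groups were given the same spread, unlike the real libraries, and the spread of each gene was drawn from an assumed distribution. These rates are therefore only a rough guide for any class 1 gene, and they do not describe the lowest ones. Python 3.11.15 drew the figures. Alternatives covered pseudocount, filter, scaling, trend, library weights, a replicate block and each library left out. The members and lists were chosen with earlier results of these data known. The genes named are the assay's genes, direct paralogs of members, up to 3 genes of largest difference and 2 of highest FPKM per list, and the 3 genes nearest in pattern to the member of largest difference each way. SOX10, BAP1, SLIT2 and TBC1D5 were named outside this rule, after their values were seen. Not every gene that the rule allows is named, and 1 is not reported here.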

Additional observations from a re-analysis of the deposited data

How the results depend on the processing

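With 2 libraries a group, unknown depth and low levels of SATB1, ROBO1 and LMCD1, only large differences could be called. No class 1 gene was called in any of the 14 alternatives in which it was tested (limma adjusted p from 0.0806 for LTA4H without resistant replicate 1 to 0.993 for LMCD1 without parental replicate 1), and 7 of the 8 kept their direction. At a minimum mean of 5 FPKM, SATB1, ROBO1 and LMCD1 were not tested.

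The class 1 median log2 fold change of 0.05 was -0.23 at that minimum, 0.23 with control-gene scaling and -0.01 when libraries were rescaled to a common sum. The common sum lay above the FPKM sums, so that setting also lowered the weight of the added 1. With 1 library left out the class 1 median ran from -0.20 to 0.15 (-0.20 when parental replicate 2 was dropped, -0.18 when resistant replicate 2 was). The class 1 minus class 2 difference of -0.39 ran from -0.57 to -0.22 with 1 library left out and was 0.46 when RAB31 was left out, a setting added after seeing the data. ID2 ran from -0.25 to 1.09, HTR2B from -0.16 to 0.31, ID1 from -0.28 to 0.21, TES from -0.57 to 0.15, RNPEPL1 from -0.04 to 0.26 and SAP130 from -0.31 to 0.11 with 1 library left out. Dropping resistant replicate 1 took ID3 from 0.35 to 0.04, dropping resistant replicate 2 took KIF2C to -0.35, PTGR1 to -0.21 and CYFIP1 to -0.09, and dropping parental replicate 2 took ID4 to 0.04 and GGT1 to 0.12. With control-gene scaling, BAP1 turned to 0.01, SAP130 to 0.05, MRPS21 to 0.11 and ID1 to 0.14, and with median-of-ratios scaling MRPS21 turned to 0.03 and ID1 to 0.07 (0.01 for ID1 with quantile normalization, where TYRP1 turned from 0.28 to -0.17).

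Over all genes, limma called 5 higher and 1 lower. It called 3 higher with library weights, median-of-ratios scaling, quantile normalization or a pseudocount of 0.1, 0 higher and 0 lower with control-gene scaling (846 and 546 at an unadjusted p under 0.05), 3 lower with the common sum, and 0 to 19 higher and 0 to 10 lower with 1 library left out. Dropping parental replicate 1 or 2 gave 17 or 19 higher and 8 or 10 lower, and dropping resistant replicate 1 or 2 gave 0 higher (1095 or 1015 at an unadjusted p under 0.05) and 1 or 0 lower (2542 or 1183), where the lone library was assumed to vary like the other group. The split at an unadjusted limma p under 0.05 was 622 higher and 1045 lower as reported, 916 and 886 for median-of-ratios, 853 and 951 for quantile normalization, 846 and 546 for control-gene scaling, and 513 and 1231 for the common sum. The median of all genes, -0.079, was 0.009, -0.012, 0.073 and -0.138 under these 4 scalings. Of these the common sum also changed the weight of the added 1, so its values do not reflect scaling alone. With the replicate block limma called 4 higher and 1 lower and 0 class 1 genes. Same-numbered libraries deviated with a correlation of -0.0709 over genes, and whether they share a preparation was not tested. SATB1 had a limma adjusted p of 0.191 with the block. The causes were not tested.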
